A study of Mus musculus with 100 samples.

Results

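A set of 7 genes that mark the passage of pluripotent cells from the naive to the formative and epiblast states was followed through the series: Fgf4, Fgf5, Otx2, Pou3f1, Utf1, Zic2 and Zic5. They are 7 of 23109 gene-level entries and were taken by name from the RNA tables of 37 libraries. Each is held by 1 transcript in those tables, so its read count is that of the gene. A level is given as CPM (counts-per-million) scaled by the trimmed mean of M values (TMM), and a level is compared between genes only as RPKM, which also divides by transcript length.

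When naive embryonic stem cells leave self-renewal, signalling by fibroblast growth factors (FGFs) through the ERK kinases lets naive genes fall and formative genes rise. FGF4 is the FGF ligand that the stem cells make themselves, and Fgf5 is the classic marker of the epiblast after implantation. Otx2 and Pou3f1 (also called Oct6) encode homeodomain and POU factors that act in this transition and later in the nervous system, Zic2 and Zic5 encode zinc finger factors that are used again in the neural plate, and Utf1 encodes a chromatin-associated protein of pluripotent cells.

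The series was designed around MLL3 and MLL4, related enzymes that methylate histone H3 and are encoded in the mouse by Kmt2c and Kmt2d. All cultured cells carried Mll3-/-. The reference cells were Mll4flox/flox and the compared cells Mll4KI/KI, where KI is not spelled out in the labels and 2 KI lines, each 1 clone (27 and 48), were used. Embryonic stem cells (ESCs) grew with 1 µM of the MEK inhibitor PD0325901, 3 µM of the GSK3 inhibitor CHIR99021 and 1000 units/mL of LIF, a medium that itself lowers ERK signalling. Embryoid bodies (EBs), aggregates that differentiate without LIF, were taken at days 4 and 10, with 1 flox and 2 KI libraries a day. Neural cultures received 5 µM retinoic acid after day 4 of aggregation and were sampled as progenitors at day 8 and neurons at day 16, with 2 flox and 2 KI libraries each. Extraembryonic endoderm (ExEn) cultures had 5 days with activin A (10 ng/mL) and 0.1 µM retinoic acid. Trophectoderm (TE) cultures had 6 days of a doxycycline-induced CDX2 transgene (1 µg/mL doxycycline) in medium with 25 ng/mL FGF4 protein, so the product of 1 member was supplied from outside. TE and ExEn had 2 flox and 2 KI libraries each. Whole embryos, taken at E8.5 or E9.5, were KI (Mll3flox/KI, Mll4flox/KI, Sox2-Cre) or control (Mll3flox/KI, Mll4flox/+, Sox2-Cre), 3 of each at each stage. Sox2-Cre acts in the epiblast, so the tissues outside it keep the floxed alleles, and the controls also carry the Mll3 alleles and the recombinase.

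Gene-level totals ran from 18.9 to 59.9 M reads a library, so a count of 0 allows up to 0.05 CPM in the deepest library and 0.159 CPM in the shallowest, counting error only and per total reads without the TMM scaling. Kmt2c reads were found in every group (28.7 to 97.5 CPM in the cultured flox libraries and 32.8 to 104.7 CPM in the cultured KI libraries), as were Kmt2d reads (148.0 to 328.2 CPM and 169.5 to 339.3 CPM), so total reads of these genes do not check the genotype labels. Markers of the labelled cell types were present, though the summed trophoblast level did not set TE apart from ExEn cultures in flox. The summed level of 5 core pluripotency genes was 3217 CPM in flox ESCs and 2496 to 2546 CPM in KI ESCs, that of 11 ExEn markers 5052 to 5143 CPM in flox ExEn cultures and 2645 to 2812 CPM in KI ones, and that of 8 neuron markers 3960 to 4287 CPM in flox and 7064 to 7833 CPM in KI neural day 16 cultures. That of 10 trophoblast markers was 3167 to 3239 CPM in flox TE cultures and 3229 to 3236 CPM in flox ExEn cultures, and 5431 to 5763 CPM and 3998 to 4686 CPM in the KI ones. The labels do not say that libraries of a group came from separate cultures or litters, so p-values measure the spread between these libraries, which may be technical. The 2 flox libraries of neural day 8 were closer to each other (chi-square of 1.5 per degree of freedom over genes) than any other replicate pair (2.76 to 54.8).

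The stretch just before the transcription start is shown for the 5 members with a promoter entry in the RefSeq table (build GRCm38.p6). These are Fgf4 (chr7:144861136-144861385, plus strand), Fgf5 (chr5:98253934-98254183, plus strand), Utf1 (chr7:139943606-139943855, plus strand), Zic5 (chr14:122465659-122465908, minus strand) and the outermost of 4 listed starts of Otx2 (chr14:48667645-48667894, minus strand). They are set together because all 5 genes fall from EB day 4 to day 10 in every line. Each line gives the 250 bases before the start, 5′ to 3′ on the strand of the gene, with matches to 1 of 6 searched strings in capitals.
Fgf4: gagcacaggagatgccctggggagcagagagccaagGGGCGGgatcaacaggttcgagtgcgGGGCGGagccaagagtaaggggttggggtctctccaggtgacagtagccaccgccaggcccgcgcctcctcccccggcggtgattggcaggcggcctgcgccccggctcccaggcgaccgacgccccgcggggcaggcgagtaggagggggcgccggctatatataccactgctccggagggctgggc
Fgf5: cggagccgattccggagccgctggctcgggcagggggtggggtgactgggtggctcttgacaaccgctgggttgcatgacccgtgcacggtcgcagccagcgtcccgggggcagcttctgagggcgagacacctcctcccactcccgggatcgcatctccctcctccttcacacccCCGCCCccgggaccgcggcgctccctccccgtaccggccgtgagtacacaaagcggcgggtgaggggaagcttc
Otx2: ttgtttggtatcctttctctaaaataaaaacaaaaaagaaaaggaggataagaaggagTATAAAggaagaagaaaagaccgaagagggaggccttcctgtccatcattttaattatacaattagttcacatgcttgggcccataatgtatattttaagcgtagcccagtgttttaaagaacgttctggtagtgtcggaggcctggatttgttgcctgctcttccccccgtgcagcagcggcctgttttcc
Utf1: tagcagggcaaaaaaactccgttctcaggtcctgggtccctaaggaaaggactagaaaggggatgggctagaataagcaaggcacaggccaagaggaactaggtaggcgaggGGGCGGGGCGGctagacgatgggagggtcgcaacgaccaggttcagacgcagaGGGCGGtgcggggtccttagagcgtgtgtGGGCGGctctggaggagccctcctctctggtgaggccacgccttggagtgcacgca
Zic5: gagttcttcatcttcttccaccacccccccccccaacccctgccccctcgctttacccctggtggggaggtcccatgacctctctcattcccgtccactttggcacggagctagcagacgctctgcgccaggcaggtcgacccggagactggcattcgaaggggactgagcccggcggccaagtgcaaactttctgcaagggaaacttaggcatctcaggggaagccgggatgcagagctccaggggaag
The strings were searched on both strands: the octamer ATGCAAAT (in 1.6% of the 32851 windows of this length in the table), the SOX string CATTGT (10.7%), the OTX string GGATTA (6.25%), the GC box GGGCGG (32.7%), the TATA string TATAAA (12.4%) and the E-box CACGTG (6.02%). The GC box was in 3 of the 5 windows shown, 4 times in Utf1 (with 1 pair sharing a base), 2 times in Fgf4 and 1 time in Fgf5. TATAAA was in the Otx2 window shown, GGATTA in the window of another Otx2 start, and no string was in the Zic5 window. Fgf4 and Fgf5 had the windows richest in G and C (71.2% and 70.8%, against a median of 52.4% over all windows), and the 4 Otx2 windows ranged from 42.0% to 53.6%. A match describes these letters and is not a binding site.

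Among the ligands, Fgf4 stood highest in stem cells and fell throughout the EB course. It was at 310.4 CPM in flox ESCs and at 255.8 and 284.9 CPM in the KI clones 27 and 48. At day 4 it was at 37.8 CPM in flox and 60.0 and 63.4 CPM in KI, and at day 10 at 0.853 CPM in flox and 1.59 and 1.01 CPM in KI. Each step was downward in all 3 lines. Fgf5 did the opposite at first. It was at 0.302 CPM in flox ESCs and at 0.0928 and 0.0924 CPM in KI ESCs, which is 4 reads over both clones. At day 4 it was at 73.3 CPM in flox and 59.0 and 69.6 CPM in KI, the highest Fgf5 levels of all 18 groups, and at day 10 at 4.34 CPM in flox and 2.84 and 2.38 CPM in KI.

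Otx2 was the transcription factor gene that differed most between the lines before differentiation. It was at 1.03 CPM in flox ESCs and at 12.8 and 10.8 CPM in the KI clones, at 52.2 CPM in flox and 96.4 and 104.4 CPM in KI at day 4, and at 4.86 CPM in flox and 5.97 and 2.74 CPM in KI at day 10. Both clones lay above flox in ESCs and at day 4, and on either side of it at day 10. Pou3f1 was low in all 3 ESC libraries, at 3.92 CPM in flox and 2.88 and 3.74 CPM in KI, and rose to 111.3 CPM in flox and 157.9 and 172.0 CPM in KI at day 4. At day 10 it was at 12.0 CPM in flox and 7.71 and 7.13 CPM in KI. As for Otx2, day 4 held its highest levels of all groups.

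Zic2 and Zic5 were already on in stem cells. Zic2 was at 153.2 CPM in flox ESCs and 95.3 and 84.8 CPM in KI ESCs, then at 116.4 CPM in flox and 165.2 and 171.2 CPM in KI at day 4. At day 10 it was at 12.7 CPM in flox and 7.21 and 2.82 CPM in KI. The order of flox and KI thus turned between ESCs and day 4 and again between day 4 and day 10. Zic5 went 18.8, 24.4 and 2.41 CPM over the 3 days in flox, 15.1, 29.6 and 0.945 CPM in clone 27, and 14.7, 28.9 and 0.645 CPM in clone 48. Utf1 went 144.8, 125.9 and 0.927 CPM in flox, 73.0, 268.6 and 3.23 CPM in clone 27, and 78.9, 270.0 and 1.77 CPM in clone 48. Utf1 is therefore a gene whose day 4 level lay below that of ESCs in the flox line and above it in both clones.

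**Figure D1:**
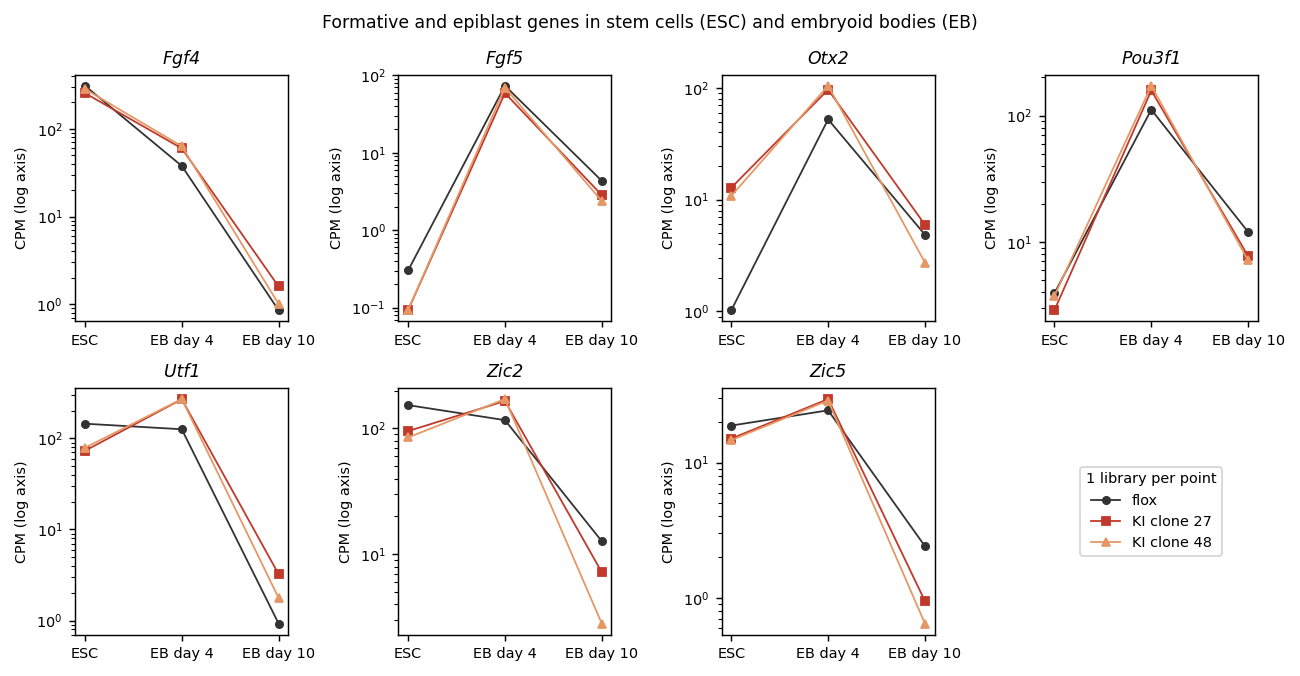
Level of each gene in CPM (log axis) in ESCs and in EBs at days 4 and 10, 1 point per library, with lines joining the libraries of flox, KI clone 27 and KI clone 48. Fgf4 falls at each step in all 3 lines, Fgf5, Otx2 and Pou3f1 peak at day 4 in all 3 lines, and Utf1 and Zic2 peak at day 4 in the KI clones, not in flox.

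In the KI clones, all 7 members passed the test between ESCs and day 4, 6 higher and 1 lower, where 50.3% of all genes tested passed (edgeR's quasi-likelihood test on counts, Benjamini-Hochberg adjusted p under 0.05 over all genes, 2 libraries a day). Their median log2 fold change was 1.83, against 0.01 over all genes. Fgf4 fell by 2.12 ± 0.12 (SE) on the log2 scale (edgeR adjusted p = 1.17e-05). Fgf5 was 694-fold higher in CPM, 2772 reads against 4, with a 95% interval of 271 to 2549.9 that covers counting error only. Pou3f1 rose by 5.64 ± 0.14 (edgeR adjusted p = 7.55e-07), Otx2 by 3.10 ± 0.28 (edgeR adjusted p = 0.000339), Utf1 by 1.83 ± 0.16 (edgeR adjusted p = 0.000163) and Zic5 by 0.98 ± 0.13 (edgeR adjusted p = 0.000773). Zic2 rose least, by 0.91 ± 0.29 (edgeR adjusted p = 0.0462). The Zic2 call was lost with DESeq2 (adjusted p = 0.137) and without any 1 of the 4 libraries compared (edgeR adjusted p = 0.126 to 0.204). A fit of all 9 libraries with day and genotype called 4 members, without Utf1, Zic2 and Zic5. The share of all genes called in that fit is not given here.

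All 7 members fell from day 4 to day 10 in the KI clones, by 4.48 to 6.78 on the log2 scale, where 73.3% of all genes changed. Utf1 fell by 6.78, Fgf4 by 5.60, Zic5 by 5.22, Zic2 by 5.11, Fgf5 by 4.64, Otx2 by 4.56 and Pou3f1 by 4.48. Between ESCs and day 10, all 7 differed, 2 higher and 5 lower, where 79.2% of genes differed. Pou3f1 stayed 1.16 above its ESC level, and Fgf5 was 27.9-fold higher in CPM, 116 reads against 4 (95% interval 10.6 to 104.07, counting error only). Fgf4 was 7.72, Utf1 4.95, Zic5 4.24 and Otx2 1.47 log2 units lower, with Zic2 close to Zic5, and the Otx2 call was lost in the fit of all 9 libraries (log2 fold change -0.57, edgeR adjusted p = 0.421).

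The flox line has 1 library a day and allows no test, so a 2-fold difference in log2(CPM + 0.5) among genes of at least 1 CPM stands in for a call. From ESCs to day 4, 3 members were higher (20.6% of genes were) and 1 was lower (11.4% of genes were). Fgf5 differed by 6.53, Otx2 by 5.11 and Pou3f1 by 4.66 log2 units, and Fgf4 by -3.02. Zic5 (0.37), Utf1 (-0.20) and Zic2 (-0.40) stayed within 2-fold. All 7 were lower at day 10 than at day 4 (14.9% of genes were lower and 19.9% higher), by 3.10 to 6.47 log2 units. Against ESCs, day 10 had 3 higher members (30.7% of genes were higher), Fgf5, Otx2 and Pou3f1, and 4 lower ones (22.1% of genes were lower). Otx2 was thus 1.81 log2 units above its ESC level at day 10 in flox and below it in the KI clones, a difference between the lines that was not tested.

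Per length, Utf1 was the most abundant member in flox ESCs (79.3 RPKM), ahead of Fgf4 (65.1 RPKM) and Zic2 (32.8 RPKM), and Fgf5 was the least abundant (0.0767 RPKM). In KI ESCs, Fgf4 came first (58.7 RPKM). At day 4 Utf1 led in both genotypes, with 78.3 RPKM in flox and a mean of 164.2 RPKM in KI. The 5 genes other than Utf1 and Zic5 lay between 9.00 and 28.3 RPKM in flox and between 14.4 and 41.2 RPKM in KI at that day. At day 10 no member had a group mean above 3.56 RPKM.

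Averaged over the 3 days, none of the 7 members passed the test of KI against flox, where 0.707% of all genes did (edgeR adjusted p = 0.224 to 0.853). At an unadjusted p under 0.05 there was 1 member, and DESeq2 called 0. Otx2 had the widest difference, 1.04 ± 0.54 (SE), and Fgf5 differed by -0.53, Zic2 by -0.57, Zic5 by -0.50, Fgf4 by 0.25, Utf1 by 0.21 and Pou3f1 by -0.13. A KI against flox difference that changes between days enters the residual of this fit, which recovered 45% of simulated 2-fold changes. Without the flox ESC library, Utf1 passed, with 1.16 (edgeR adjusted p = 0.0393).

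On single days, a member counted where both clones were at least 2-fold from the 1 flox library. In ESCs, where Fgf5 was under the minimum of 1 CPM and 6 members were judged, this held for Otx2 alone, higher by 3.12 and 2.89 log2 units in clones 27 and 48 (5.04% of genes were higher and 2.81% lower). The 2 KI libraries together had 510 Otx2 reads and the flox library 17, a ratio of CPM of 11.5 (95% interval 7.12 to 19.9, counting error only). Summed ExEn markers were at 147.4 CPM in flox ESCs and 50.8 to 72.4 CPM in KI ESCs, and naive pluripotency markers at 5066 CPM and 4105 to 4422 CPM, and their part in the Otx2 level was not tested. At day 4 it held for Utf1 alone, higher by 1.09 in clone 27 and by nearly the same amount in clone 48 (1.52% of genes were higher and 4.19% lower). Marker sums differed too at day 4, with trophoblast markers at 1982 CPM in flox and 504 to 617 CPM in KI, ExEn markers at 607 CPM and 219 to 281 CPM, and core pluripotency markers at 1574 CPM and 2215 to 2333 CPM, and their part in the member levels was not tested. At day 10 it held for Zic5 alone, lower by 1.01 and 1.35 log2 units (3.55% of genes were higher and 3.81% lower), close to the threshold and lost with 1 CPM added in place of 0.5. These are differences from 1 library and have no replicate check on the flox side.

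Other genes of the same process changed as well in the KI clones, not all in the direction of the members. From ESCs to day 4, where 50.3% of all genes were called, all 12 naive pluripotency genes fell (median log2 fold change -3.22). They were led by Klf4 (-4.96) and Tfcp2l1 (-4.50), both factors of the naive network. Of 5 core pluripotency genes, 2 rose and 1 fell. Of 12 other formative and epiblast genes, 10 rose and none fell (median 1.83), led by Grhl2 (3.73) and Sox3 (3.63). Of 14 FGF receptor and ERK feedback genes, 11 rose and 1 fell (median 1.70), led by the phosphatase gene Dusp4 (5.61) and the immediate early gene Egr1 (5.57), while the ETS factor gene Etv5 fell by 0.90. All 8 primitive streak genes rose (median 4.23), led by the ligand gene Fgf8 (8.89). From day 4 to day 10, where 73.3% of all genes were called, all 5 core pluripotency genes fell (median -3.08), as did all 8 streak genes. Of the 12 other formative genes, 8 fell (Foxd3 by 6.80, Tdgf1 by 6.47) and 1 rose, the cadherin gene Cdh3 by 2.95. The share of them called was near that of all genes. Of the 14 FGF receptor and ERK feedback genes, 7 fell and 6 rose (median -0.23). All 11 ExEn markers and all 6 heart markers rose over the same step. In these bulk libraries, fewer cells of a type and less RNA per cell cannot be told apart. At day 10, summed ExEn markers were at 1836 CPM in flox and 4285 to 4309 CPM in KI, and summed heart markers at 1511 CPM in flox and 143 to 203 CPM in KI, and their part in the day 10 levels of the members was not tested.

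In the neural cultures Zic2, Zic5 and Pou3f1 remained in use. Between days 8 and 16, Zic2 and Zic5 RNA fell in both genotypes, and further in KI. Zic2 was at 57.9 and 56.8 CPM in flox and 36.7 and 41.6 CPM in KI (clones 27 and 48) at day 8, and at 44.3 and 47.3 CPM in flox and 11.4 and 10.5 CPM in KI at day 16. Zic5 was at 15.8 and 16.7 CPM in flox and 9.95 and 11.5 CPM in KI at day 8, and at 5.17 and 5.48 CPM in flox and 0.844 and 0.588 CPM in KI at day 16. The genotypes did not overlap on either day for either gene. The share of all genes without overlap is not given here, and edgeR called 19.5% of all genes at day 8 and 46.9% at day 16. Pou3f1, which is also a neural gene, was at 22.4 and 23.3 CPM in flox and 17.4 and 15.4 CPM in KI at day 8, and at 35.1 and 43.9 CPM in flox and 38.8 and 42.9 CPM in KI at day 16, where the genotypes overlapped.

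Fgf5 and Utf1 were low here and Fgf4 and Otx2 near 0. Fgf5 was at 1.61 and 1.78 CPM in flox and 3.32 and 4.41 CPM in KI at day 8, and at 0.766 and 0.761 CPM in flox and 1.22 and 1.14 CPM in KI at day 16. Utf1 was at 0.278 and 0.455 CPM in flox and 1.07 and 1.04 CPM in KI at day 8, and had 2 to 4 reads in each day 16 library. Fgf4 had at most 4 reads in any neural library, and Otx2 had 2 to 6 reads in the day 8 libraries and 0 in all 4 day 16 libraries. These 2 genes were below the filter on low counts, so 5 members were tested.

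At day 8, all 5 tested members differed between KI and flox, 2 higher and 3 lower, where 19.5% of all genes differed. Fgf5 was higher in KI by 1.18 ± 0.19 (SE; edgeR adjusted p = 0.000855) and Utf1 by 1.49 (edgeR adjusted p = 0.00352). Zic2 was lower by 0.56 ± 0.10 (edgeR adjusted p = 0.00116), Zic5 by 0.61 ± 0.13 (edgeR adjusted p = 0.00614) and Pou3f1 by 0.49 (edgeR adjusted p = 0.0127). Summed core pluripotency markers were at 298.1 to 302.0 CPM in flox and 374.2 to 399.0 CPM in KI (1 of 5 higher, 1 lower). Summed naive markers were at 37.85 to 38.8 CPM and 59.0 to 61.25 CPM (3 of 8 higher, 3 lower). Summed ExEn markers were at 461.9 to 462.1 CPM and 329.3 to 332.0 CPM (1 of 10 higher, 7 lower). The part of these markers in the member levels was not tested. The calls of Fgf5 and Zic2 held without each library in turn. That of Pou3f1 was lost without either flox library or without clone 48, that of Utf1 without flox library 1 and with DESeq2 (adjusted p = 0.0687), and that of Zic5 without flox library 2 or clone 27, so 3 members passed without either flox library.

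At day 16, 2 of the 5 differed, both lower, where 46.9% of all genes differed. Zic2 was lower in KI by 2.09 ± 0.10 (edgeR adjusted p = 4.14e-08) and Zic5 by 2.92 ± 0.19 (edgeR adjusted p = 2.76e-07). The values for the others were 0.60 for Fgf5 (edgeR adjusted p = 0.0584), 0.02 for Pou3f1 and 0.18 for Utf1. The KI effect itself changed between the days for 3 of 5 members, where it did for 33.2% of genes, by -1.53 for Zic2 (edgeR adjusted p = 1.27e-05), -2.31 for Zic5 (edgeR adjusted p = 2.35e-05) and 0.52 for Pou3f1 (edgeR adjusted p = 0.0344). The Pou3f1 difference lost its call under upper-quartile scaling and without 6 of the 8 libraries in turn, all but flox library 2 and clone 27 of day 16.

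Between days 8 and 16, all 5 members changed in each genotype, 1 higher and 4 lower, where 77.1% of genes changed in flox and 79.9% in KI. Pou3f1 rose by 0.73 in flox and 1.25 in KI. Zic2 fell by 0.38 in flox and 1.91 in KI, and Zic5 by 1.67 in flox and 3.98 in KI. Summed neural progenitor markers were at 1154 to 1175 CPM at day 8 and 469.5 to 515.2 CPM at day 16 in flox. In KI they were at 1179 to 1180 CPM and 510.4 to 641.6 CPM. In each genotype 6 of 7 of these markers were lower at day 16 and 1 higher. Their part in the Zic2 and Zic5 levels was not tested. Fgf5 fell by 1.20 in flox and 1.78 in KI. Utf1 fell in both, and its CPM was 7.14-fold (95% interval 2.81 to 23.2) and 17.3-fold (7.69 to 48.3) higher at day 8 than at day 16, counting error only.

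Zic5 fell further than Zic2, and the RPKM ratio of Zic2 to Zic5 within a library shows this without any scaling. It was 2.83 on average in flox and 2.93 in KI at day 8. At day 16 it was 6.91 in flox (6.89 to 6.94 in the 2 libraries) and 12.6 in KI (10.8 to 14.4), the highest of the 18 groups. The lowest was in flox TE cultures, at 2.44.

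Paralogs of the transcription factor members were measured in the same cultures. Of 6 tested at day 8, 2 were higher in KI and none lower, where 19.5% of all genes were called in either direction, and at day 16, 3 were higher and none lower, where 46.9% were, so the share called at day 16 was near that of all genes. Pou3f4 was higher by 0.97 at day 8, and Pou3f2, a relative of Pou3f1 in neurons, was higher by 1.30 at day 16. Of the 14 FGF receptor and ERK feedback genes, 10 were lower in KI and none higher at day 16, with Fgfr4 lowest (-2.77). Summed neuron markers were at 1467 to 1476 CPM in flox and 975.5 to 1125 CPM in KI at day 8, and at 3960 to 4287 CPM and 7064 to 7833 CPM at day 16. All 8 neuron markers were higher in KI at day 16 (median 0.84 against 0.09 over all genes). Summed ExEn markers were at 392.4 to 417.7 CPM in flox and 172.1 to 240.0 CPM in KI at day 16 (6 of 10 lower), and summed trophoblast markers at 13.9 to 16.2 CPM and 5.02 to 5.42 CPM (5 of 7 lower). The part of these cell types in the Zic2 and Zic5 levels was not tested.

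**Figure D2:**
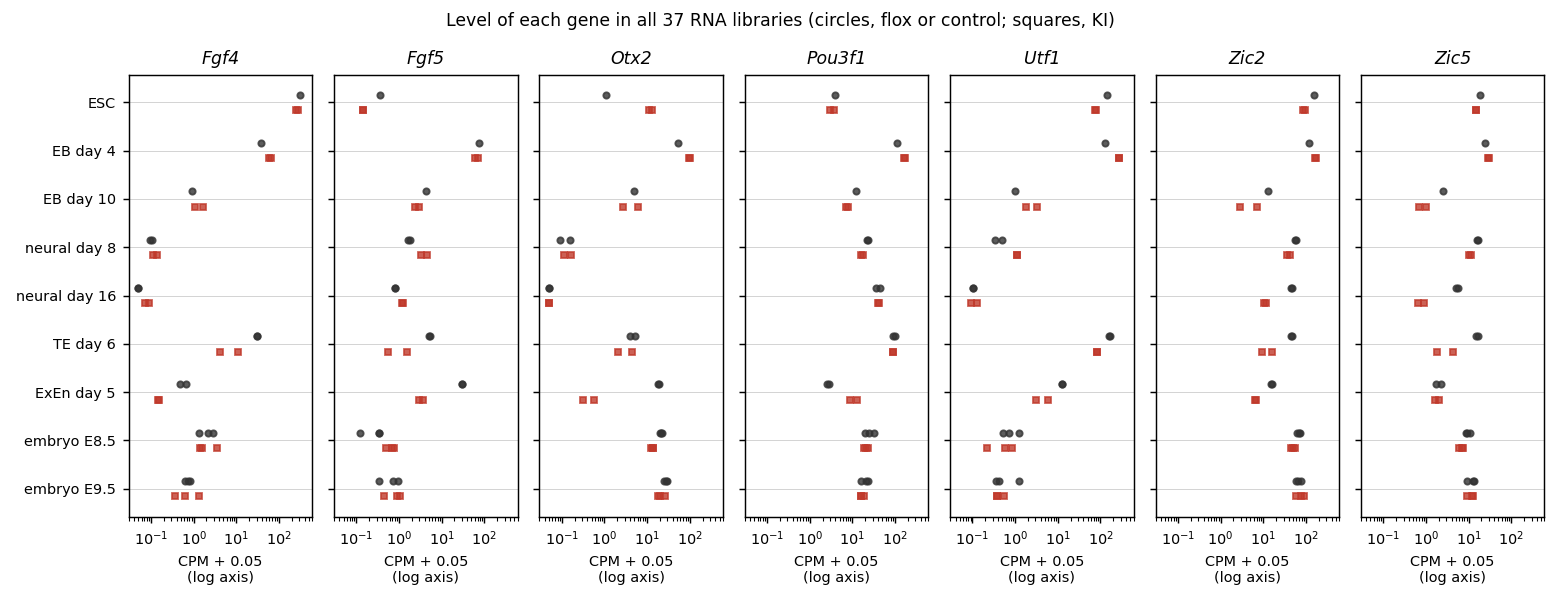
Level of each gene in all 37 libraries, as CPM + 0.05 on a log axis, with circles for flox or control and squares for KI. Day 4 EBs hold the highest levels of every gene but Fgf4, which is highest in ESCs, and the KI squares of Zic2 and Zic5 lie left of the flox circles in neural day 16 and TE cultures.

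TE cultures held Utf1 and Pou3f1 at high levels, and 5 of the 7 were lower in KI. Fgf4 was at 31.3 and 30.2 CPM in flox and 4.02 and 10.8 CPM in KI, and Fgf5 at 5.11 and 5.14 CPM in flox and 0.488 and 1.50 CPM in KI. Zic2 was at 44.8 and 48.03 CPM in flox and 9.38 and 16.3 CPM in KI, and Zic5 at 16.2 and 14.5 CPM in flox and 1.73 and 4.32 CPM in KI. Utf1 was at 171.6 and 155.3 CPM in flox and 83.3 and 81.0 CPM in KI. These 5 genes did not overlap between the genotypes. The share of all genes without overlap is not given here, and edgeR called 50.9% of all genes. Clone 27 was the lower of the clones for 4 of the 5. Pou3f1 was high in all 4 libraries, at 97.0 and 88.3 CPM in flox and 89.0 and 88.3 CPM in KI, and Otx2 was low, at 3.84 and 5.30 CPM in flox and 2.06 and 4.36 CPM in KI.

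The 5 lower calls in TE stood against 50.9% of all genes called. Zic5 was lower by 2.35, Fgf5 by 2.36, Fgf4 by 2.06 (edgeR adjusted p = 0.00233), Zic2 by 1.86 and Utf1 by 1.00 log2 units. The Fgf4 call was lost when the 4 TE libraries were fitted alone (edgeR adjusted p = 0.0632). Otx2 (-0.52, edgeR adjusted p = 0.194) and Pou3f1 (-0.07, edgeR adjusted p = 0.600) did not pass, and Otx2 passed without clone 48 (-1.17, edgeR adjusted p = 0.00649). Of 5 core pluripotency genes, 4 were lower in KI (Sox2 by 3.00, Pou5f1 by 1.33) and none higher, and of 12 naive genes 9 were lower and 1 higher. Of 12 other formative genes, 6 were lower and 1 higher. Of 14 FGF receptor and ERK feedback genes, 9 were lower and 2 higher, while their summed level was 807 to 825 CPM in flox and 885 to 940.5 CPM in KI. Summed core markers were at 901 to 943 CPM in flox and 452 to 540 CPM in KI, and summed trophoblast markers at 3167 to 3239 CPM in flox and 5431 to 5763 CPM in KI, with 7 of 9 trophoblast genes higher and Elf5 lower by 3.79. Summed primitive streak markers were at 42.2 to 48.4 CPM in flox and 74.0 to 149.4 CPM in KI (4 of 7 higher), and summed primordial germ cell markers at 156.1 to 160.1 CPM and 266.1 to 339.4 CPM. Summed neuron markers were at 102.3 to 106.9 CPM in flox and 23.2 to 24.0 CPM in KI, and neural progenitor markers at 78.05 to 81.3 CPM and 40.1 to 47.4 CPM. The part of any of these cell types in the member levels was not tested.

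In ExEn cultures Fgf5 and Otx2 were the members most reduced in KI, and Pou3f1 was raised. Fgf5 was at 30.1 and 29.7 CPM in flox and 3.61 and 2.93 CPM in KI. Otx2 was at 18.7 and 17.6 CPM in flox and 0.530 and 0.262 CPM in KI, which is 697 reads against 16. Both genes were far apart between the genotypes. Pou3f1 was at 2.74 and 2.46 CPM in flox and 12.7 and 8.89 CPM in KI, with no overlap in the other direction. Utf1 was at 12.2 and 12.7 CPM in flox and 5.73 and 2.98 CPM in KI, and Zic2 at 15.4 and 15.95 CPM in flox and 6.50 and 6.64 CPM in KI. Zic5 overlapped, at 1.67 and 2.25 CPM in flox and 1.93 and 1.62 CPM in KI. Fgf4 was near the limit of detection, with 12 and 8 reads in flox and 2 reads in each KI library.

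The test called 5 of 7 members, 1 higher and 4 lower, where 35.5% of all genes were called. Otx2 was lower by 5.49 ± 0.42 (edgeR adjusted p = 4.94e-07), Fgf5 by 3.19, Utf1 by 1.50 and Zic2 by 1.26, and Pou3f1 was higher by 2.05 ± 0.18 (edgeR adjusted p = 1.68e-06). Fgf4 did not pass (edgeR adjusted p = 0.223) and did with DESeq2 (adjusted p = 0.0195). Its ratio of flox to KI CPM was 5.2, with a 95% interval of 1.74 to 20.9 that covers counting error only. Zic5 differed by -0.15 (edgeR adjusted p = 0.827). All 11 ExEn markers were lower in KI (median -2.79), Afp by 5.96, and Ttr had no read in either KI library against 20.9 and 23.2 CPM in flox. Of 12 other formative genes, 6 were lower, among them the DNA methyltransferase gene Dnmt3b (-2.61), and 3 were higher (median -0.24), and of 12 naive genes 1 was lower and 4 were higher. Core pluripotency genes (3 of 5 lower, 1 higher) summed to 517 to 522 CPM in flox and 176.5 to 204 CPM in KI, and primitive streak genes (4 of 7 lower, none higher) to 73.5 to 76.9 CPM and 10.7 to 12.8 CPM. The part of these markers in the member levels was not tested.

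All 7 members differed between TE and ExEn in flox, 5 higher and 2 lower in TE, where 64.7% of all genes differed. Fgf4 was higher in TE by 5.86, Pou3f1 by 5.14, Utf1 by 3.70, Zic5 by 2.96 and Zic2 by 1.55, and Fgf5 was lower by 2.56 and Otx2 by 2.00. In KI, 6 differed, 5 higher and 1 lower, where 63.1% of genes differed. There Otx2 was higher in TE, by 2.97, in place of lower, and Zic5 (0.75, edgeR adjusted p = 0.102) did not pass. The KI effect differed between TE and ExEn for 3 of 7 members, where it did for 35.3% of genes: Otx2 by 4.97 (edgeR adjusted p = 1.53e-05), Pou3f1 by -2.12 (edgeR adjusted p = 6.07e-06) and Zic5 by -2.20 (edgeR adjusted p = 0.00573). With the flox replicate number or KI clone as a block, Zic2 joined them (-0.64, edgeR adjusted p = 0.0296). Same-numbered flox libraries of TE and ExEn correlated at -0.0112 in their deviations from group means, so the flox numbers showed no pairing. Single libraries decided further calls here. Without clone 27 of TE, Zic5 passed between TE and ExEn in KI (1.26, edgeR adjusted p = 0.00172) and the KI effect differed for Fgf5 (1.41, edgeR adjusted p = 0.00425). It also differed for Zic2 without clone 48 of TE (-1.07, edgeR adjusted p = 0.000639) and for Utf1 without clone 27 of ExEn (1.07, edgeR adjusted p = 0.00029).

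In whole embryos Zic2, Otx2, Pou3f1 and Zic5 were the members with the most RNA per length in each group, and Fgf4, Fgf5 and Utf1 were low. Otx2 was at 20.1, 21.8 and 22.9 CPM in control and 12.5, 13.9 and 13.9 CPM in KI embryos at E8.5, and at 29.7, 24.9 and 27.3 CPM in control and 17.8, 26.1 and 20.5 CPM in KI embryos at E9.5. The groups were apart at E8.5 and overlapped at E9.5. Zic2 was at 73.6, 69.3 and 60.8 CPM in control and 45.2, 54.7 and 49.0 CPM in KI at E8.5, again without overlap, and at 75.1, 66.8 and 57.4 CPM in control and 76.3, 90.1 and 57.7 CPM in KI at E9.5. Zic5 was at 10.6, 8.72 and 9.08 CPM in control and 7.49, 6.79 and 5.87 CPM in KI at E8.5, and overlapped at E9.5 (9.08 to 13.3 CPM in control and 9.25 to 12.9 CPM in KI). Pou3f1 ranged from 15.4 to 31.4 CPM over the 12 embryos. Fgf4 ranged from 1.26 to 3.57 CPM at E8.5 and 0.322 to 1.26 CPM at E9.5, and no embryo had more than 1.03 CPM of Fgf5 or 1.19 CPM of Utf1.

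At E8.5, 1 of 7 members passed the test, Otx2, lower in KI by 0.69 ± 0.13 (edgeR adjusted p = 0.00386), where 5.46% of all genes passed. Zic2 (-0.46, edgeR adjusted p = 0.109) and Zic5 (-0.50, edgeR adjusted p = 0.121) did not pass, nor did Pou3f1 (-0.29), Utf1 (-0.65), Fgf4 (0.03) and Fgf5, with 41 reads in KI and 14 in control. The embryo titles carry numbers shared by KI and control embryos, and same-numbered E8.5 embryos deviated together, so the numbers were taken to pair them. With that number as a block, 3 members passed, Otx2 (-0.69, edgeR adjusted p = 0.00293), Zic2 (-0.46, edgeR adjusted p = 0.00345) and Zic5 (-0.51, edgeR adjusted p = 0.0376). All 3 were lower in KI and did not overlap between the genotypes, so any pairing of the embryos would place KI below control. The block fit also used the numbers of the E9.5 embryos, and the share of all genes it called is not given here. Among the paralogs, 2 of 7 were lower at E8.5, Pou3f2 by 1.07 and Otx1 by 0.50. Of 10 anterior neural genes, 3 were lower, led by the midbrain genes En2 (-2.03) and En1 (-1.32). Other marker sums differed between the same embryos. Trophoblast markers were at 950 to 1124 CPM in KI and 617 to 759 CPM in control, primitive blood markers at 128 to 206 CPM and 659 to 1248 CPM, and neural progenitor markers at 279 to 304 CPM and 334 to 374 CPM, and their part in the member levels was not tested.

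At E9.5, 0 of 7 members passed with edgeR, where 29.5% of all genes did. At an unadjusted p under 0.05 there was 1 member, and DESeq2 called 1, Otx2. The Otx2 difference was -0.34 (edgeR adjusted p = 0.0528). It passed without KI embryo 2 (-0.51, edgeR adjusted p = 0.00859) or without control embryo 2 (-0.41, edgeR adjusted p = 0.0439). Otx2 also passed with no filter on low counts (-0.35, edgeR adjusted p = 0.0417). With the title number as a block, not taken as a pairing at E9.5, it passed as well (-0.35, edgeR adjusted p = 0.0437). Without KI embryo 3, Zic2 passed as higher in KI (0.33, edgeR adjusted p = 0.04996). With all 12 embryos, Zic2 differed by 0.17, Zic5 by -0.015, Fgf4 by 0.10, Fgf5 by 0.25, Pou3f1 by -0.25 and Utf1 by -0.70. All 7 tested paralogs were lower in KI at E9.5 (median -0.73 against 0.01 over all genes). Summed neuron markers were at 176 to 260 CPM in control and 47.0 to 51.2 CPM in KI embryos, and all 6 heart markers were higher in KI. What these tissue differences contribute to the member levels was not tested.

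From E8.5 to E9.5, 1 of 7 members changed in control embryos, Fgf4 by -1.63 (edgeR adjusted p = 0.0228), where 24.2% of genes changed. In KI embryos 4 changed, 3 higher and 1 lower, where 32.5% of genes changed. These were Otx2 (0.67, edgeR adjusted p = 0.000735), Zic5 (0.77), Zic2 (0.59) and Fgf4 (-1.56). Summed primitive streak markers were at 114.2 to 162.1 CPM at E8.5 and 45.6 to 76.95 CPM at E9.5 in control embryos. In KI embryos they were at 133.1 to 166.3 CPM and 42.45 to 64.6 CPM. Summed core pluripotency markers fell too, from a mean of 1004 to 553.1 CPM in control and 999.1 to 640.5 CPM in KI embryos. The part of these markers in the Fgf4 levels was not tested. Between the same KI stages, summed anterior neural markers went from 110.7 to 131.2 CPM to 173.3 to 204.4 CPM (6 of 10 higher and 2 lower), and summed neural progenitor markers from 279.3 to 304.2 CPM to 333.9 to 380.5 CPM (4 of 7 higher and 1 lower), and their part in the member levels was not tested. The Fgf4 call was lost without control embryo 2 of E8.5 or control embryo 1 or 2 of E9.5 (edgeR adjusted p = 0.0619 to 0.0941), and in KI without embryo 1 of E8.5 or embryo 2 or 3 of E9.5 (edgeR adjusted p = 0.0769 to 0.188). Pou3f1 passed in control embryos without embryo 3 of E8.5 (-0.53, edgeR adjusted p = 0.0206) or embryo 1 of E9.5 (-0.50, edgeR adjusted p = 0.0431). The KI effect at E9.5 differed from that at E8.5 for 0 of 7 members with edgeR, where it did for 6.63% of genes. At an unadjusted p under 0.05 there was 1 member, and DESeq2 called 1, Zic2 (0.62, adjusted p = 0.0222). Zic2 also passed without KI embryo 3 of E9.5 (0.79, edgeR adjusted p = 0.00784). It passed too with the title number as a block (0.62, edgeR adjusted p = 0.00425). That block covers both stages, though the numbers were not taken as pairs at E9.5.

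**Figure D3:**
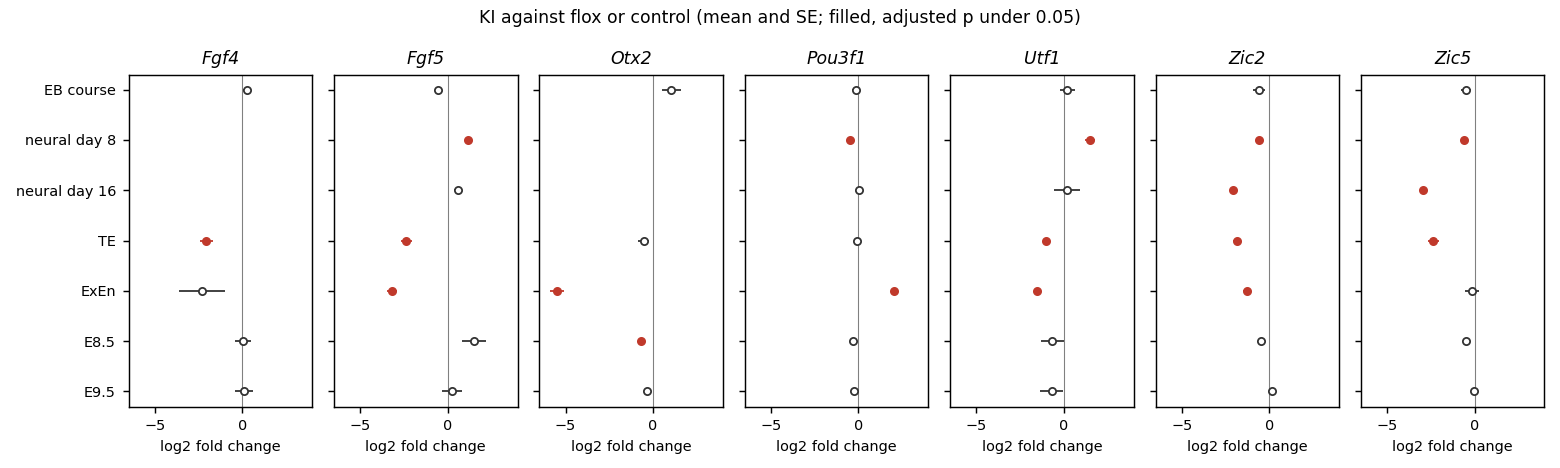
Log2 fold change of KI against flox or control for each gene, with the SE as a bar and filled points for an adjusted p under 0.05 in edgeR's quasi-likelihood test. Zic2 is lower in KI in 4 of the comparisons shown with a filled point and in none higher, Otx2 is lowest in ExEn cultures, and Pou3f1 is higher in KI in ExEn cultures.

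Over the 18 groups, EB day 4 of the KI clones held the highest mean level of 5 members (Otx2, Pou3f1, Utf1, Zic2 and Zic5), EB day 4 of flox that of Fgf5, and flox ESCs that of Fgf4. All libraries were made by poly(A) selection per the protocols, while the starting RNA is labelled poly(A) for ESC, EB and neural samples and total for the rest, so levels set across them carry that difference. Below the top the genes parted. After both EB day 4 groups, the next groups of Otx2 were control and KI embryos and flox ExEn cultures, those of Pou3f1 were TE and neural day 16 cultures, and Fgf5 had flox ExEn cultures (29.9 CPM) and then no group above 5.12 CPM. The highest groups of Utf1 and Fgf4 were ESC, EB day 4 and TE cultures. The lowest groups were flox ExEn cultures for Pou3f1 (2.60 CPM), KI EBs of day 10 for Zic2 (5.02 CPM), KI neural day 16 for Zic5 (0.716 CPM) and KI ESCs for Fgf5. Of the 17 pairs of neighbouring groups in these orders, the ranges of the libraries overlapped in 5 pairs for Fgf4, 7 for Utf1, 8 each for Fgf5, Otx2, Pou3f1 and Zic5, and 9 for Zic2, and a group with 1 library has no range of its own.

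Zic2 and Zic5 had the most alike patterns among the members, with a Pearson r of 0.943 of log2(CPM + 0.5) over the 18 group means, and Fgf4 and Utf1 followed with 0.867. The other 19 pairs ranged from 0.038 to 0.58. Points within an experiment share culture, depth and library type, so these r are descriptions. Over 16142 genes, the most similar to Zic2 were 2610035F20Rik (0.971), Zic5 (0.943) and Eno1b (0.916), and the most similar to Zic5 were 2610035F20Rik (0.945), Zic2 (0.943) and Eno1b (0.905). Utf1 was closest to Dnmt3l (0.978), D7Ertd143e (0.970) and Dppa5a (0.958), and Fgf4 to Ephx2 (0.974), Gdf3 (0.974) and Pycard (0.973). Fgf5 was closest to Il15ra (0.898), Relt (0.895) and Tph1 (0.867), Otx2 to Eif4enif1 (0.870), Fgf8 (0.863) and Eef1aknmt (0.856), and Pou3f1 to Doc2g (0.882), Igsf1 (0.823) and 2010010A06Rik (0.806). Over the 14 culture group means alone, Doc2g came to 0.954 with Pou3f1, and the 3 genes named for Otx2 ranked 10 (Eif4enif1), 16 (Fgf8) and 13 (Eef1aknmt). Dppa5a ranked 11 for Utf1 and 2010010A06Rik 10 for Pou3f1, and the other genes named here ranked 6 or better.

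The noncoding gene 2610035F20Rik lies between Zic5 and Zic2 in the RefSeq gene order of GRCm38.p6, next to both. Its level was 13.1 CPM in flox ESCs and 14.9 CPM in KI EBs of day 4. In neural day 16 cultures it was at 2.37 and 3.55 CPM in flox and at 0.485 and 0.726 CPM in KI, and in TE cultures at a mean of 3.98 CPM in flox and 0.981 CPM in KI. All 3 neighbours were lower in KI in those 2 kinds of culture, with no test made for 2610035F20Rik. All 3 were also lower in KI at neural day 8, with 2610035F20Rik at 4.56 and 5.09 CPM in flox and 2.27 and 2.80 CPM in KI. In ESCs all 3 lay below the flox library in both clones, and at EB day 4 above it. In E9.5 embryos they parted, with 2610035F20Rik at 5.05 to 6.87 CPM in control and 3.80 to 3.99 CPM in KI while Zic2 and Zic5 overlapped. They parted in ExEn cultures too, where Zic2 was lower in KI while 2610035F20Rik overlapped (0.643 to 1.01 CPM in flox and 0.481 to 0.942 CPM in KI). Use of strand in counting is not given in the sources used here, so reads that run past a gene end or come from the other strand could be shared among these 3 genes.

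**Figure D4:**
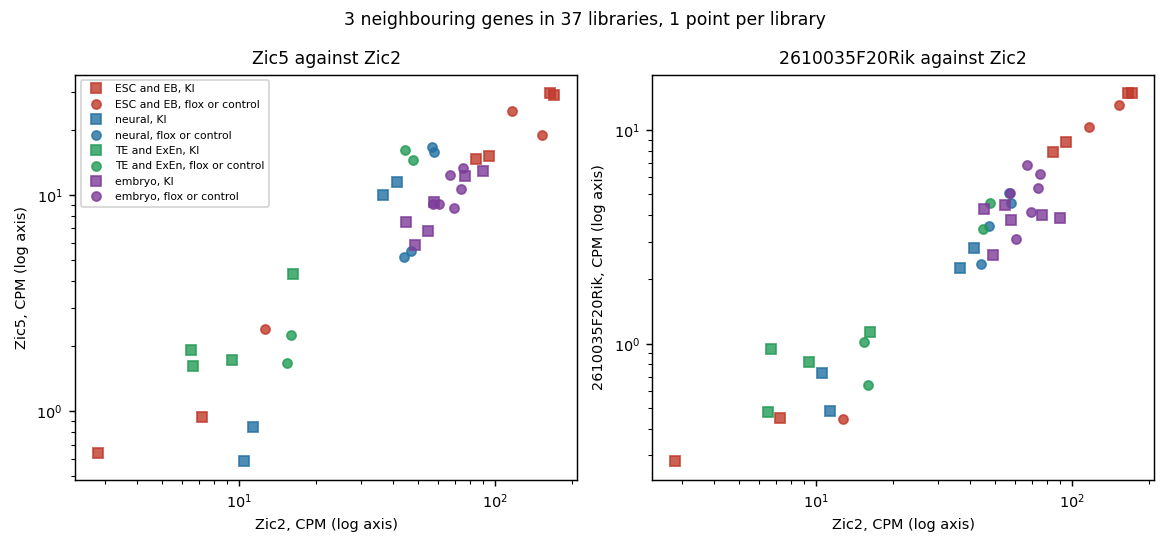
Zic5 (left) and 2610035F20Rik (right) against Zic2 in CPM on log axes, 1 point per library, coloured by experiment, with squares for KI and circles for flox or control. Both genes rise with Zic2 over the 37 libraries, and the KI libraries of neural day 16 (0.844 and 0.588 CPM) and of EB day 10 (0.945 and 0.645 CPM) lie lowest in Zic5.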

How the data were processed

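Libraries of poly(A)-selected RNA, per the labels' protocols for all 37 in 18 groups, were used, and the other 63 of the 100 samples (chromatin, accessibility, input and 1 further neural library) were not analysed here. Per the file headers, the authors' deposited tables hold a count and an RPKM for each of 29082 transcripts. The submitters' processing notes name STAR, Bowtie2 and the mm9 build, without a role, and the use of strand is not given in the sources used here. The deposited counts are whole reads and were tested as deposited, and the deposited RPKM values were used only to compare levels between genes within libraries. For each gene the transcript with the most reads over the 37 libraries was kept (28432 transcripts matched to a symbol and 650 not).

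Counts were fitted per experiment with edgeR 4.0.16 in R 4.3.3 (filterByExpr with a minimum count of 10, TMM scaling, robust glmQLFit, glmQLFTest, Benjamini-Hochberg adjustment over all genes, threshold 0.05), with all groups of an experiment sharing 1 spread and no covariates, except day as a factor where KI and flox were compared over the EB course. DESeq2 1.42.0, other scalings, no filter, fits of only the libraries compared, a replicate block and leaving out each library were alternatives. Single-day and flox comparisons without replicates used a fold of 2 on log2(CPM + 0.5) among genes of at least 1 CPM. Read ratios of genes with few reads carry exact binomial 95% intervals. A lack of overlap between genotypes describes the libraries of the named gene only, as the share of all genes without overlap is not given here. Likeness is the Pearson r over 18 group means. On simulated counts, 2-fold changes were recovered in 63% of cases for KI day 4 against ESCs, 84% for neural day 8, 68% for TE and 75% for E8.5 embryos. False calls there were 23 of 175 for KI day 4 against ESCs and 26 of 206 for neural day 8. They were 10 of 164 for TE and 9 of 171 for E8.5 embryos. Each is a larger share than the threshold of 0.05, most so for KI day 4 and neural day 8. Python 3.11.15, numpy 2.4.6, pandas 2.3.3, scipy 1.17.1 and matplotlib 3.10.9 were used for levels and plots.

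The rule for named genes covers all 7 members, and those that did not pass are given by value or by count. Of each gene list, the counts are given, and genes are named from the 2 with the largest rise and the 2 with the largest fall among those called. The members and lists were chosen with earlier results of these data known. KI clones are the same lines on all days, and their deviations from group means correlated at 0.145 to 0.386 between days of the EB course, 0.275 between neural days and 0.252 between TE and ExEn. Those of same-numbered flox libraries correlated at 0.101 between neural days and -0.0112 between TE and ExEn. Title numbers of E8.5 embryos were taken as pairs because the 3 same-numbered pairs correlated at 0.152 to 0.349, and those of E9.5 embryos, at -0.00567 to 0.177, were not. Pairs with different numbers correlated at -0.276 to -0.00922 at E8.5 and -0.177 to -0.0343 at E9.5. The choice was made from these data, the same-number ranges of the stages overlap, and the block fit used the numbers of both stages. Promoter sequences come from RefSeq, build GRCm38.p6, while the counts were made on another build, so no value is placed at those coordinates. Results of 1 listed gene are not reported here.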

Additional observations from a re-analysis of the deposited data

Results flagged for a closer look

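The effect of KI differed between 2 settings, by the interaction test of edgeR, for 6 results. In neural cultures the KI effect at day 16 minus that at day 8 was -1.53 log2 units for Zic2, -2.31 for Zic5 and 0.52 for Pou3f1. Between TE and ExEn cultures the KI effect differed by 4.97 for Otx2, -2.12 for Pou3f1 and -2.20 for Zic5. The KI effect on Otx2 was -0.52 in TE and -5.49 in ExEn, that on Pou3f1 -0.07 and 2.05, and that on Zic5 -2.35 and -0.15.

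In the EB course, both KI clones lay on one side of the single flox library on one day and on the other side on another day for 10 results, and these differences were not tested. The mean log2 ratio of KI to flox at day 4 minus that in ESCs was 0.90 for Fgf4, 0.79 for Pou3f1, 2.02 for Utf1, 1.30 for Zic2 and 0.58 for Zic5. At day 10 minus ESCs it was 0.59 for Fgf4 and 1.96 for Utf1. At day 10 minus day 4 it was -1.22 for Pou3f1, -1.92 for Zic2 and -1.43 for Zic5. Each rests on the 1 flox library of each day.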

How the results depend on the processing

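Of 233 recomputed counts of members called, 213 stayed within 1.5 times the reported count. The KI count of day 4 against ESCs was 4 in the fit of all 9 EB libraries. With DESeq2, the count was 2 at E8.5, 1 at E9.5 and 1 for the embryo interaction. It was 1 at E9.5 with no filter, 2 at E8.5 and 2 for E9.5 against E8.5 in control embryos when only the libraries compared were fitted, and 0 for EB day 10 single-day calls with 1 CPM added. With the title number as a replicate block, the count was 3 at E8.5, 1 at E9.5 (Otx2, -0.35) and 1 for the embryo interaction. With the flox replicate number or KI clone as a block, the KI effect in TE minus ExEn differed for 4 members in place of 3. No other count of members called changed with either block. The shares of all genes called in these alternative fits are not given here. Leaving out 1 library at a time gave counts of 0 to 1 for KI against flox over the EB course, 3 to 4 for neural day 8, 0 to 1 at E9.5, 0 to 2 for E9.5 against E8.5 in control embryos and 0 to 1 for the embryo interaction.

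No member called in its comparison changed sign in any setting run. Among uncalled ones, Pou3f1 at neural day 16 was -0.092 under upper-quartile scaling and -0.071 when only the libraries compared were fitted, and with the block Fgf4 at E8.5 was -0.036 and the Utf1 interaction in embryos 0.15. Leaving out 1 library turned the sign of others, with these ranges. KI against flox over the EB course gave -0.053 to 0.66 for Fgf4, -0.54 to 0.26 for Pou3f1 and -0.35 to 1.16 for Utf1. Neural day 16 gave -0.13 to 0.20 for Pou3f1 and -0.31 to 0.53 for Utf1. Zic5 ranged from -0.35 to 0.076 for ExEn and from -0.070 to 1.26 for TE against ExEn in KI, and the KI effect in TE minus ExEn from -0.64 to 0.80 for Fgf4 and -0.21 to 1.41 for Fgf5. Fgf4 at E8.5 ranged from -0.56 to 0.31. At E9.5 the ranges were -0.58 to 0.45 for Fgf4, -0.078 to 0.60 for Fgf5, -1.04 to 0.13 for Utf1 and -0.17 to 0.12 for Zic5. For E9.5 against E8.5, control embryos gave -1.19 to 0.090 for Utf1 and -0.16 to 0.035 for Zic2, and KI embryos -0.83 to 0.062 for Utf1. The embryo interaction gave -0.61 to 0.66 for Fgf4, -0.13 to 0.18 for Pou3f1 and -0.51 to 0.77 for Utf1. The cause of these changes was not tested. Of 1514 recomputed member tests, 1414 kept direction and call, 31 lost their call and 24 gained one. A leave-out that leaves 1 library in a group assumes that it varies like the other groups. Few reads limit Fgf4, Fgf5 and Utf1 in embryos, Fgf4 in ExEn and Utf1 in neural cultures.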
